A study of Mus musculus with 12 samples.

Results

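Interferon-stimulated genes are described here in mouse kidneys with adenine-induced chronic kidney disease (CKD), with and without colchicine. The set holds 44 genes, found by symbol among the 40213 symbols counted. It comprises 33 genes best known as targets of type I interferon and 11 GTPases best known as targets of interferon gamma. All 44 passed the filter on low counts, as did 17841 genes in all.

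RNA of C57BL/6 kidneys was sequenced in 12 libraries, in 3 groups of 4. Mice of the colchicine group ate an adenine diet and were injected intraperitoneally with colchicine, 0.3 mg/kg/day. The CKD group received saline by the same route on a 2% adenine diet, and the control group received saline on a normal diet. The labels give 2, 3, 4 and 5% adenine for colchicine replicates 1, 2, 3 and 4, so replicate 1 alone matches the CKD diet as labelled. Dietary adenine is oxidised to a compound that crystallises in the tubules. Colchicine blocks the assembly of microtubules and is used against gout. All libraries carry the label batch 1, and the labels used here give neither age nor sex. The colchicine libraries are titled biological replicates and the others replicates. No label ties a library to an animal, so p-values measure only the spread between these samples, part of which may be technical.

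Interferons are secreted proteins that put cells into an antiviral state. Type I interferons bind the Ifnar1 and Ifnar2 receptor, whose kinases Jak1 and Tyk2 set off assembly of the factor ISGF3. It contains Stat2 and Irf9 and binds interferon-stimulated response elements (ISRE). Interferon gamma binds Ifngr1 and Ifngr2, whose kinases Jak1 and Jak2 act on transcription through gamma-activated sites (GAS). Many genes answer to both, so the division of the members into type I and gamma targets is a convention. In kidney, tubular, endothelial and immune cells can all respond.

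Library totals lay between 23872093 and 38253100 counts in colchicine, 22200909 and 27399569 in CKD and 22613647 and 31662883 in control kidneys. Mitochondrially encoded transcripts took 14.6 to 21.8% of the counts in colchicine, 16.7 to 17.3% in CKD and 41.5 to 46.7% in control kidneys. Levels are given as CPM, the count per 1000000 counts of a library, scaled by TMM, the trimmed mean of M-values, which sets most genes equal between libraries. Scaling by library totals alone moves the median of all genes in CKD against control by 1.01 on the log2 scale, so changes against control are relative to that median. The proximal tubule markers were detected in every group, with summed levels of 517 to 804 CPM in colchicine, 850.2 to 1085 CPM in CKD and 32142 to 34836 CPM in control kidneys.

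Most members with a known promoter window held an interferon motif there. In the RefSeq promoter table (GRCm38.p6), which covers 250 bases before to 50 after a gene's start, 32 of the 44 members had a window. The ISRE core was searched as 2 copies of GAAA set 2 bases apart and the GAS core as TTCNNNGAA, on both strands, with overlapping matches counted. The ISRE core stood in 8 of 9 windowed gamma-induced GTPases and in 14 of 23 windowed type I members, against 3.993% of 27025 genes with a window. The GAS core stood in 5 of 9 and in 5 of 23, against 9.554% of all. The 2 motifs overlapped in some windows, such as that of Bst2. The first 30 bases after the start in the Bst2 window were not found in a transcript of Bst2. A match is a description of letters and not evidence of binding. The stretches shown are the 150 bases before the start of 4 type I members and 2 gamma-induced GTPases. They are chosen examples, and each holds an ISRE core, unlike some other windows. Capitals mark ISRE cores, which read as paired GAAA or, from the other strand, paired TTTC, and in Bst2 and Tgtp1 also a GAS core. Isg15 lies on the minus strand at chr4:156200819-156200968, Ifit1 on the plus strand at chr19:34640739-34640888, Bst2 on the minus strand at chr8:71537473-71537622, Rsad2 on the minus strand at chr12:26456453-26456602, Gbp3 on the plus strand at chr3:142559894-142560043 and Tgtp1 on the minus strand at chr11:48992247-48992396.
Isg15: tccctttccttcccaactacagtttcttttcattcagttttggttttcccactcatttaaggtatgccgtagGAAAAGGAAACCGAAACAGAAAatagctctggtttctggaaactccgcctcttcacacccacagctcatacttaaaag
Ifit1: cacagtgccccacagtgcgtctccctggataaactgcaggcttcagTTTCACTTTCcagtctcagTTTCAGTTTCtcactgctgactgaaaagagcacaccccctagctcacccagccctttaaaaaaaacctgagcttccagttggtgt
Bst2: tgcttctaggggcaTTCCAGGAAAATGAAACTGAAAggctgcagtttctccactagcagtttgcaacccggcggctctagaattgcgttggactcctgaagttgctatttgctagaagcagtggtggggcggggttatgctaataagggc
Rsad2: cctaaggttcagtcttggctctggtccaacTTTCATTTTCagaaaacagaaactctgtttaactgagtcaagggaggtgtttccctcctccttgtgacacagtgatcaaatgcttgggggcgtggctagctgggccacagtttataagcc
Gbp3: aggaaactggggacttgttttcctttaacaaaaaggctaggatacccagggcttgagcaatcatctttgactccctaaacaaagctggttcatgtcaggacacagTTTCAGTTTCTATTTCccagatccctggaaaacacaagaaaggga
Tgtp1: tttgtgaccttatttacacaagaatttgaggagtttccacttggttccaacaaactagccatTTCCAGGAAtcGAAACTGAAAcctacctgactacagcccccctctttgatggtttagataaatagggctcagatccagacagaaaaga

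In Isg15, 3 overlapping ISRE cores began 78, 72 and 66 bases before the start. Ifit1 had separate cores 104 and 85 bases before it, and Rsad2 a single core 120 bases before it. In Gbp3 overlapping cores began 45 and 39 bases before the start. In Tgtp1 a GAS core began 88 bases before the start and an ISRE core 77 bases before it. The windows of Irf7, Irf9, Cmpk2, Ifi44, Ifi47, Oasl1, Oasl2 and Xaf1 held neither set of letters.

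**Figure D1:**
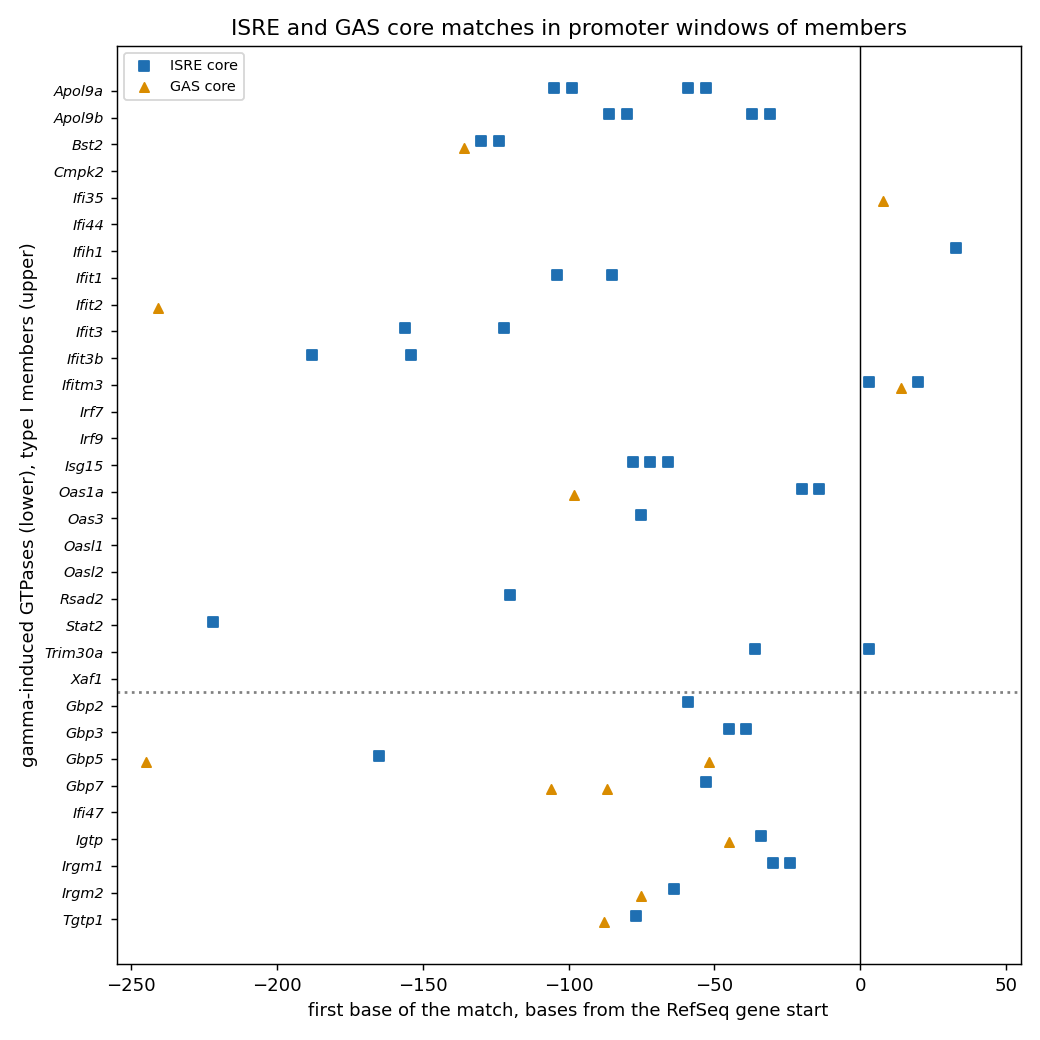
Positions of exact ISRE core (squares) and GAS core (triangles) matches in the promoter windows of 32 members, in bases from the RefSeq gene start on the horizontal axis, with 9 gamma-induced GTPases in the lower rows and 23 type I members in the upper rows. Matches lie mostly before the start, and 8 of the 9 GTPases hold an ISRE core.

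The comparison of CKD with control asks how adenine feeding changed interferon-stimulated transcripts. Most members were higher in CKD. Of the 33 type I members 28 rose and 3 fell, and of the 11 gamma-induced GTPases 6 rose and none fell, by edgeR's quasi-likelihood test at a Benjamini-Hochberg adjusted p below 0.05. Over all 17841 genes tested, 67.4% were called, 34.1% higher and 33.4% lower. The CKD libraries lay wholly above control in 34 members and wholly below in 3, against 33.2% and 33% of all genes. Those wholly below were Rsad2, Cmpk2 and Ifi44, of which Ifi44 was not called. A rise of 2-fold or more was called in 22 members, against 18.7% of all genes. The median log2 fold change was 1.03 for type I members and 0.64 for gamma-induced GTPases, against 0.04 for all genes. The largest increases were in the DNA sensor Ifi204 at 3.02 ± 0.23, in Oas2 at 2.97 ± 0.31, in Oas3 at 2.82 ± 0.38 and in Mx1 at 2.79 ± 0.27 (log2 ± SE). Over the control libraries Oas3 summed to only 27 counts and Mx1 to 45. The 3 called lower were Rsad2 at -1.09 ± 0.21 log2, Apol9b at -0.73 ± 0.26, with overlapping groups, and Cmpk2 at -0.66 ± 0.23. Under library totals alone Cmpk2 and Apol9b turned to 0.36 and 0.29 and Rsad2 stayed at -0.08 log2 (adjusted p = 0.718), all below the median of 1.05 that all genes then had. Leaving out each of the 8 libraries in turn kept 26 of the 31 type I calls and all 6 GTPase calls. The 5 lost were those of Ifit3, Ifit3b, Cmpk2, Ifi27 and Apol9b.

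Colchicine kidneys were set against CKD kidneys to see how the 2 groups differed in the adenine model. As labelled, colchicine replicates 2, 3 and 4 also had more adenine, at 3, 4 and 5% against 2% in CKD. Drug and labelled diet therefore cannot be told apart in this comparison, and "with colchicine" names the group. Most type I members were higher with colchicine than in CKD. Of 33, 25 were higher in colchicine kidneys and none was lower, where 15% of all genes tested were called, 6.79% higher and 8.24% lower. Among these 25, Rsad2 and Apol9b had been lower in CKD than in control, and Ifi44 and Apol9a had not been called there. Of the 11 gamma-induced GTPases, Gbp3 and Ifi47 were higher and none was lower. The median log2 fold change was 0.77 for type I members and 0.53 for the GTPases, against 0.03 for all genes. A rise of 2-fold or more was called in 9 members, all of type I, against 0.779% of all genes. These were Apol9a, Isg15, Apol9b, Irf7, Ifit1, Ifi27l2a, Mx2, Bst2 and Usp18. The 4 colchicine libraries lay above all 4 CKD libraries in 25 type I members and in 2 GTPases, Gbp3 and Gbp4, against 8.92% of all genes, and they lay below in no member, against 9.29%. Leaving out each library in turn kept 19 of the 25 type I calls and neither GTPase call. Those lost in type I were of Stat2, Ifit3b, Oas3, Zbp1, Ifi27 and Apol9a. In whole tissue, more responding cells and more RNA per cell cannot be told apart.

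**Figure D2:**
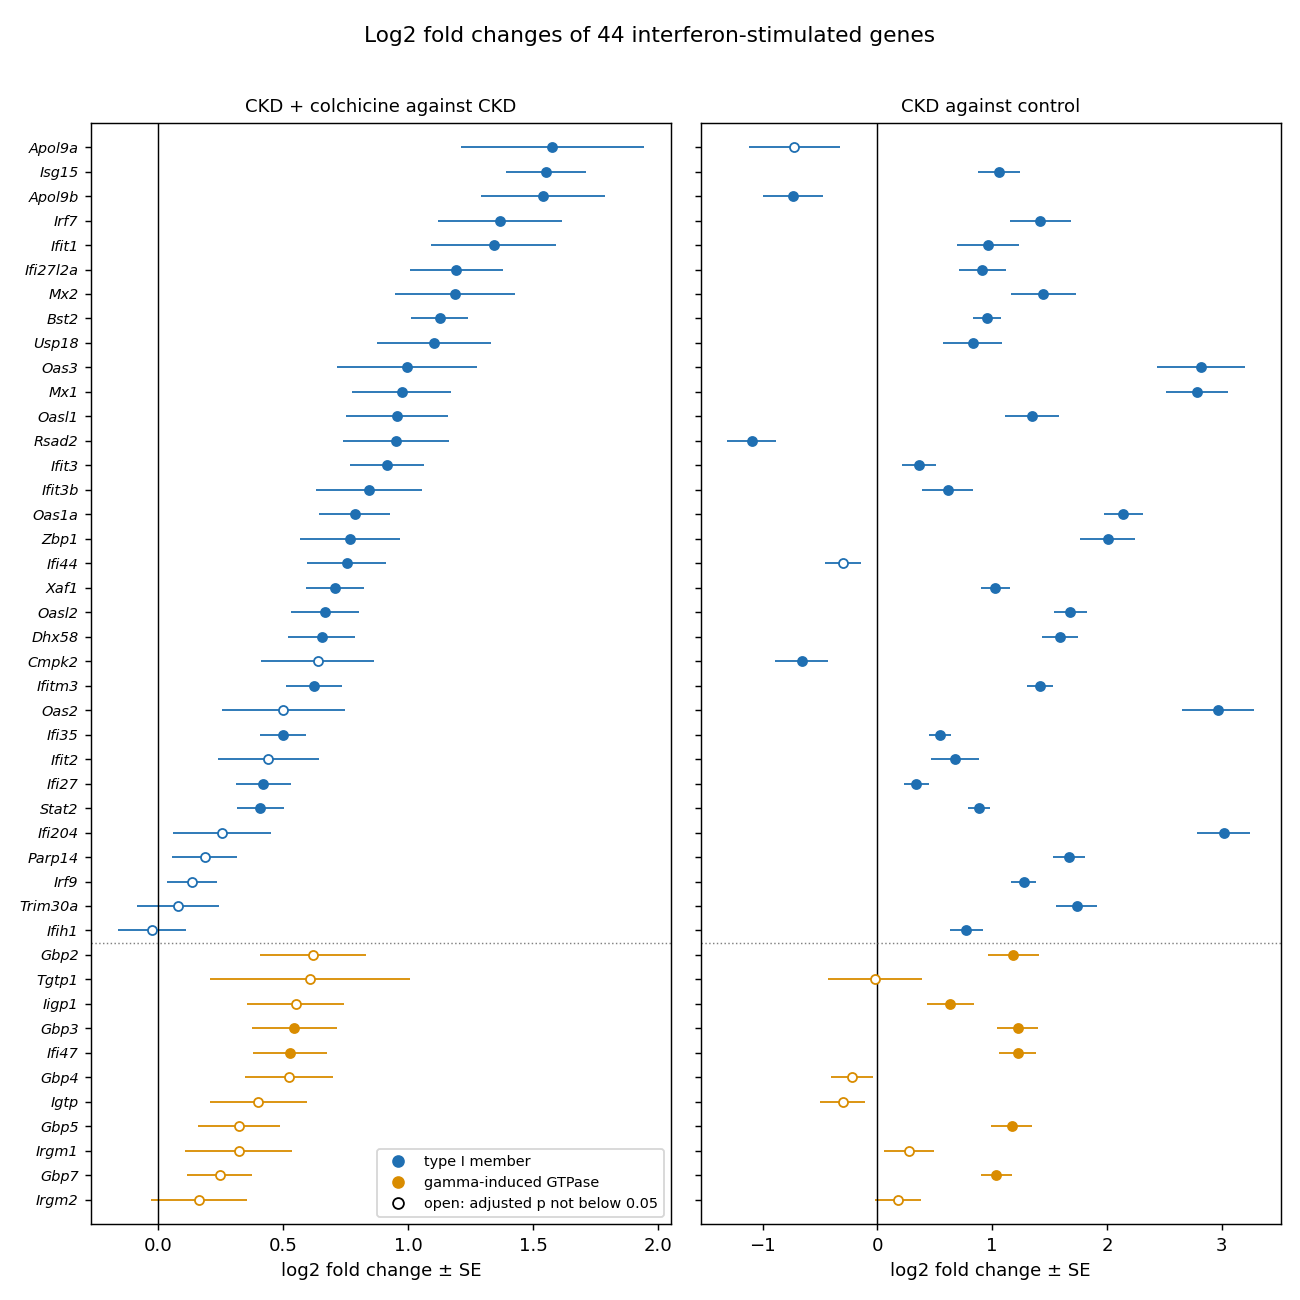
Log2 fold changes with their standard errors for 44 members in colchicine against CKD (left) and CKD against control (right), type I members in blue and gamma-induced GTPases in orange; filled points passed an edgeR adjusted p of 0.05. Most members lie right of 0 in both panels, while Rsad2, Cmpk2 and Apol9b lie left of it as filled points in CKD against control (Cmpk2 and Apol9b turn positive under library totals alone).

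Among the transcription factors, all 3 rose in CKD and 2 rose further with colchicine. Irf7 is the interferon-induced factor that drives transcription of the interferon genes themselves. It had 112, 55.1, 45.4 and 56.9 CPM in colchicine kidneys, 26.3, 28.1, 23.9 and 26.2 CPM in CKD kidneys and 11.2, 11.9, 8.15 and 7.71 CPM in control kidneys. All 4 colchicine libraries lay above every CKD library, and all CKD libraries above every control library. The log2 fold change was 1.37 ± 0.25 (SE, edgeR adjusted p = 0.00631) in colchicine against CKD and 1.42 ± 0.27 (SE, edgeR adjusted p = 0.000462) in CKD against control. Stat2, the STAT that is specific to type I and type III receptors, had 65.0, 53.7, 49.9 and 50.7 CPM in colchicine kidneys, 41.5, 43.3, 36.5 and 43.8 CPM in CKD kidneys and 23.6, 24.2, 21.0 and 20.6 CPM in control kidneys. The 3 groups did not overlap. Stat2 differed by 0.41 ± 0.09 log2 (SE, edgeR adjusted p = 0.0125) in colchicine against CKD and by 0.88 ± 0.10 (SE, edgeR adjusted p = 9.85e-07) in CKD against control. Without CKD replicate 3 the first of these was 0.35 log2 at an edgeR adjusted p of 0.0541.

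Irf9, the DNA-binding part of ISGF3, had 62.6, 44.2, 45.2 and 45.1 CPM in colchicine kidneys, 45.0, 46.6, 41.8 and 45.8 CPM in CKD kidneys and 19.8, 18.5, 18.1 and 17.6 CPM in control kidneys. Colchicine replicate 1 stood alone above the CKD libraries, and the other 3 lay among them. The log2 fold change in CKD against control was 1.28 ± 0.11 (SE, edgeR adjusted p = 4.09e-08). In colchicine against CKD it was 0.14 ± 0.10 log2 (SE, edgeR adjusted p = 0.356), and -0.0020 without colchicine replicate 1.

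The Ifit genes encode proteins that bind viral RNA and block its translation. All 4 rose in CKD, and Ifit1, Ifit3 and Ifit3b rose further with colchicine. Ifit1 had 75.7, 34.5, 35.2 and 39.0 CPM in colchicine kidneys, 18.1, 16.2, 16.9 and 21.4 CPM in CKD kidneys and 10.7, 11.0, 5.96 and 9.51 CPM in control kidneys. The colchicine libraries lay above every CKD library, with replicate 1 far above the other 3. Its log2 fold change was 1.34 ± 0.25 (SE, edgeR adjusted p = 0.00670) in colchicine against CKD and 0.96 ± 0.27 (SE, edgeR adjusted p = 0.00680) in CKD against control. Ifit3 had 174, 122, 91.8 and 103 CPM in colchicine kidneys, 66.1, 69.0, 61.6 and 63.5 CPM in CKD kidneys and 53.2, 48.6, 50.6 and 49.7 CPM in control kidneys. Its groups did not overlap, and the step between colchicine and CKD was larger than that between CKD and control. The 2 values were 0.92 ± 0.15 log2 (SE, edgeR adjusted p = 0.00271) and 0.37 ± 0.15 (SE, edgeR adjusted p = 0.0435), and the second was lost when any 1 of the 8 libraries was left out (0.34 to 0.39, edgeR adjusted p of 0.0562 to 0.0962). Ifit3b rose by 0.84 ± 0.21 log2 in colchicine against CKD, a call lost without CKD replicate 1, 3 or 4 (edgeR adjusted p up to 0.0642). In CKD against control it rose by 0.61 ± 0.22 log2, a call lost without CKD replicate 2 or 4 or control replicate 2, 3 or 4 (edgeR adjusted p up to 0.0642). Ifit2 was higher in CKD at 0.67 ± 0.21 log2, and its value of 0.44 ± 0.20 (SE, edgeR adjusted p = 0.149) in colchicine against CKD did not pass with all libraries. It was 0.60 without colchicine replicate 3 (edgeR adjusted p = 0.0495) and 0.13 without colchicine replicate 1 (edgeR adjusted p = 0.321).

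Isg15 is a ubiquitin-like protein that is joined to other proteins during an interferon response, and Usp18 removes it and damps the type I receptor. Isg15 had 31.8, 24.0, 19.4 and 27.3 CPM in colchicine kidneys, 8.62, 8.48, 7.86 and 9.93 CPM in CKD kidneys and 5.65, 4.18, 3.70 and 3.19 CPM in control kidneys. Every colchicine library lay above all CKD libraries and every CKD library above all control libraries. Isg15 was 2.93 times as high in colchicine as in CKD kidneys, at 1.55 ± 0.16 (SE, edgeR adjusted p = 0.000102) on the log2 scale. It rose by 1.06 ± 0.18 log2 (SE, edgeR adjusted p = 9.55e-05) in CKD against control. Usp18 averaged 10.9 ± 4.69 CPM in colchicine, 5.07 ± 0.586 CPM in CKD and 2.86 ± 0.360 CPM in control kidneys (SD, n = 4 each). It rose by 1.10 ± 0.23 log2 (SE, edgeR adjusted p = 0.00844) in colchicine against CKD and by 0.83 ± 0.26 (SE, edgeR adjusted p = 0.00984) in CKD against control, where limma-voom did not call it (adjusted p = 0.0859).

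Those oligoadenylate synthetases that are active enzymes make the small nucleotide that activates RNase L, which cuts RNA in infected cells. All 5 listed genes of the family rose in CKD by 2-fold or more, and 4 rose further with colchicine. Oas1a had 26.5, 17.7, 16.4 and 19.2 CPM in colchicine kidneys, 10.6, 12.7, 11.4 and 11.5 CPM in CKD kidneys and 2.27, 3.31, 2.60 and 2.20 CPM in control kidneys. Its groups did not overlap, and the step between CKD and control was the larger. The log2 fold changes were 0.79 ± 0.14 (SE, edgeR adjusted p = 0.00460) in colchicine against CKD and 2.14 ± 0.17 (SE, edgeR adjusted p = 2.64e-08) in CKD against control. Oas3, Oasl1 and Oasl2 rose by 1.00 ± 0.28, 0.95 ± 0.20 and 0.67 ± 0.14 in colchicine against CKD (log2 ± SE). In CKD against control Oasl1 and Oasl2 rose by 1.35 ± 0.24 log2 and 1.68 ± 0.14. Oasl1 in mouse is known to hold back translation of Irf7. The call for Oas3 was lost without colchicine replicate 2 or CKD replicate 1, 2, 3 or 4 (edgeR adjusted p up to 0.0865). Oas2 had one of the largest increases in CKD, and its 0.50 ± 0.25 log2 (SE, edgeR adjusted p = 0.173) in colchicine against CKD did not pass. Colchicine replicate 1 held 34.6 CPM of Oas2, and the other 3 held 15.5 to 17.8 CPM, close to the CKD libraries at 12.8 to 16.2 CPM.

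Of 9 antiviral effectors 6 rose and 2 fell in CKD (of these Cmpk2 turned positive under library totals alone), and 6 rose with colchicine. Bst2, or tetherin, holds budding virus at the cell surface, and Ifitm3 blocks viral entry from endosomes. Bst2 had 39.3, 33.5, 30.7 and 33.9 CPM in colchicine kidneys, 16.3, 17.0, 13.9 and 15.7 CPM in CKD kidneys and 9.62, 8.91, 6.50 and 7.25 CPM in control kidneys. Its groups did not overlap and its colchicine libraries lay close together. It had the smallest p of all members in colchicine against CKD, at 1.13 ± 0.11 log2 (SE, edgeR adjusted p = 8.45e-05), and 0.96 ± 0.12 (SE, edgeR adjusted p = 4.91e-06) in CKD against control. Ifitm3 had 255, 267, 229.5 and 244 CPM in colchicine kidneys, 162, 159, 156 and 168 CPM in CKD kidneys and 73.0, 67.7, 52.9 and 47.5 CPM in control kidneys. Colchicine replicate 1 was not its highest library, unlike most members. Ifitm3 rose by 0.62 ± 0.11 log2 (SE, edgeR adjusted p = 0.00390) in colchicine against CKD and by 1.42 ± 0.11 (SE, edgeR adjusted p = 2.51e-08) in CKD against control.

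Mx1 and Mx2 encode dynamin-like GTPases that block viral replication; the Mx1 gene of C57BL/6 mice is known to carry a defect that removes its activity. Mx1 averaged 8.95 ± 3.02 CPM in colchicine, 4.55 ± 0.604 CPM in CKD and 0.657 ± 0.102 CPM in control kidneys (SD, n = 4 each). It rose by 0.97 ± 0.20 log2 (SE, edgeR adjusted p = 0.00734) in colchicine against CKD. Mx2 rose by 1.19 ± 0.24 log2 (SE, edgeR adjusted p = 0.00687) in the same comparison and by 1.45 ± 0.28 (SE, edgeR adjusted p = 0.000347) in CKD against control. Trim30a, which restrains inflammatory signalling, and Parp14, an ADP-ribosyltransferase, rose in CKD by 1.74 ± 0.18 log2 and 1.67 ± 0.14. With colchicine they had 0.08 log2 (adjusted p = 0.752) and 0.19 (adjusted p = 0.325), edgeR values that did not pass, and Trim30a was -0.17 without colchicine replicate 1.

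Rsad2, Cmpk2 and Ifi44 differed from the other effectors. Rsad2, or viperin, makes a nucleotide that stops viral polymerases, and Cmpk2, a mitochondrial nucleotide kinase, is known to work with it. Rsad2 averaged 38.8 ± 15.5 CPM in colchicine, 20.0 ± 0.259 CPM in CKD and 42.6 ± 5.62 CPM in control kidneys (SD, n = 4 each). The CKD libraries lay between 19.7 and 20.2 CPM, below every colchicine library and every control library. Rsad2 fell by 1.09 in CKD against control (SE 0.21, edgeR adjusted p = 0.000494) and rose by 0.95 ± 0.21 log2 (SE, edgeR adjusted p = 0.0127) in colchicine against CKD, a call lost with no low-count filter (adjusted p = 0.0503). In colchicine against control it was -0.14 ± 0.21 log2 (SE, edgeR adjusted p = 0.557), and without colchicine replicate 1 it was -0.45 at an edgeR adjusted p of 0.00297. Cmpk2 averaged 16.3 ± 6.81 CPM in colchicine, 10.4 ± 1.12 CPM in CKD and 16.4 ± 3.28 CPM in control kidneys (SD, n = 4 each). It was -0.66 ± 0.23 log2 (SE, edgeR adjusted p = 0.0217) in CKD against control, a call lost without control replicate 1 (-0.52, adjusted p of 0.0760) or CKD replicate 1 (-0.60, adjusted p of 0.0587). With colchicine Cmpk2 was 0.64 ± 0.23 log2 (SE, edgeR adjusted p = 0.0708), relative to CKD, short of the threshold although the groups did not overlap. Ifi44 had 39.8 to 70.0 CPM in colchicine, 26.4 to 32.2 CPM in CKD and 32.4 to 40.6 CPM in control kidneys. It was -0.30 ± 0.16 log2 (SE, edgeR adjusted p = 0.112) in CKD against control and 0.75 ± 0.16 (SE, edgeR adjusted p = 0.00874) in colchicine against CKD.

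Among the sensors, all 5 rose in CKD and 3 rose with colchicine. Ifi204, a sensor of DNA, had 73.1, 45.3, 30.5 and 43.9 CPM in colchicine kidneys, 38.8, 37.7, 44.3 and 40.5 CPM in CKD kidneys and 4.43, 5.25, 4.45 and 5.74 CPM in control kidneys. All CKD libraries lay far above control, and colchicine replicate 3 lay below every CKD library. Its log2 fold change was 3.02 ± 0.23 (SE, edgeR adjusted p = 5.06e-08) in CKD against control and 0.26 ± 0.19 (SE, edgeR adjusted p = 0.371) in colchicine against CKD. Ifih1 (MDA5), a sensor of long double-stranded RNA, rose by 0.77 ± 0.14 log2 in CKD. With colchicine its change from CKD was -0.02 ± 0.14 log2 (SE, edgeR adjusted p = 0.922), and without colchicine replicate 1 it was -0.23 at an edgeR adjusted p of 0.0258. Dhx58 (LGP2), a relative that tunes Ifih1, rose by 0.65 ± 0.13 log2 (SE, edgeR adjusted p = 0.00762) in colchicine against CKD and by 1.59 ± 0.16 in CKD against control. Zbp1, which detects Z-form nucleic acid and can start necroptosis, rose by 2.01 ± 0.24 log2 in CKD against control. In colchicine against CKD it rose by 0.77 ± 0.20 log2 (SE, edgeR adjusted p = 0.0229), a call lost without CKD replicate 1 or 3 (0.68 and 0.76, adjusted p of 0.0708 and 0.0689). Ifi35 had 19.9, 21.5, 19.8 and 19.9 CPM in colchicine kidneys, 14.0, 14.5, 13.0 and 15.9 CPM in CKD kidneys and 11.4, 8.76, 9.93 and 9.28 CPM in control kidneys. Its colchicine libraries lay close together and above every CKD library, at 0.50 ± 0.09 log2 (SE, edgeR adjusted p = 0.00461), and in CKD against control it rose by 0.54 ± 0.10 (SE, edgeR adjusted p = 0.000141).

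The remaining type I members encode small mitochondrial proteins, an apoptosis factor and apolipoproteins L. All 5 rose with colchicine. Ifi27l2a had 31.4, 26.5, 29.4 and 25.6 CPM in colchicine kidneys, 13.0, 13.6, 10.1 and 12.7 CPM in CKD kidneys and 8.16, 8.45, 6.03 and 3.42 CPM in control kidneys. The groups did not overlap, and the step between colchicine and CKD was 1.19 ± 0.19 log2 (SE, edgeR adjusted p = 0.00218), against 0.91 ± 0.20 (SE, edgeR adjusted p = 0.00108) in CKD against control. Xaf1, which counters the caspase inhibitor Xiap, had 36.3, 26.6, 27.0 and 26.6 CPM in colchicine kidneys, 18.1, 17.9, 17.2 and 18.1 CPM in CKD kidneys and 7.99, 10.9, 8.08 and 7.94 CPM in control kidneys. Its groups did not overlap either, at 0.71 ± 0.12 log2 (SE, edgeR adjusted p = 0.00254) in colchicine against CKD and 1.03 ± 0.13 (SE, edgeR adjusted p = 2.93e-06) in CKD against control. Ifi27 rose by less, at 0.42 ± 0.11 log2 (SE, edgeR adjusted p = 0.0215) in colchicine against CKD and 0.34 ± 0.11 (SE, edgeR adjusted p = 0.0143) in CKD against control. The first was lost without CKD replicate 2, CKD replicate 3 or colchicine replicate 2 (edgeR adjusted p of 0.0579, 0.0767 and 0.0676), and the second without control replicate 3 (0.0545).

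Apol9a and Apol9b had the largest and the third largest rise of all members with colchicine, and Apol9b fell in CKD against control (under library totals alone it turned positive there). Apol9b averaged 4.07 ± 0.683 CPM in colchicine, 1.40 ± 0.383 CPM in CKD and 2.31 ± 0.764 CPM in control kidneys (SD, n = 4 each). It rose by 1.54 ± 0.25 log2 (SE, edgeR adjusted p = 0.00227) in colchicine against CKD, with no overlap of the groups. In CKD against control it was -0.73 ± 0.26 log2 (SE, edgeR adjusted p = 0.0218), with overlapping groups, and the call was lost without CKD replicate 1 or 4 or control replicate 1 or 2 (edgeR adjusted p up to 0.0897). Apol9a, with summed counts of 360 in colchicine, 95 in CKD and 87 in control kidneys, was low throughout. Apol9a was 1.58 ± 0.37 log2 (SE, edgeR adjusted p = 0.0132) in colchicine against CKD and -0.72 ± 0.39 (SE, edgeR adjusted p = 0.119) in CKD against control. Without CKD replicate 3 its rise with colchicine was 1.47 log2 at an edgeR adjusted p of 0.0538.

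**Figure D3:**
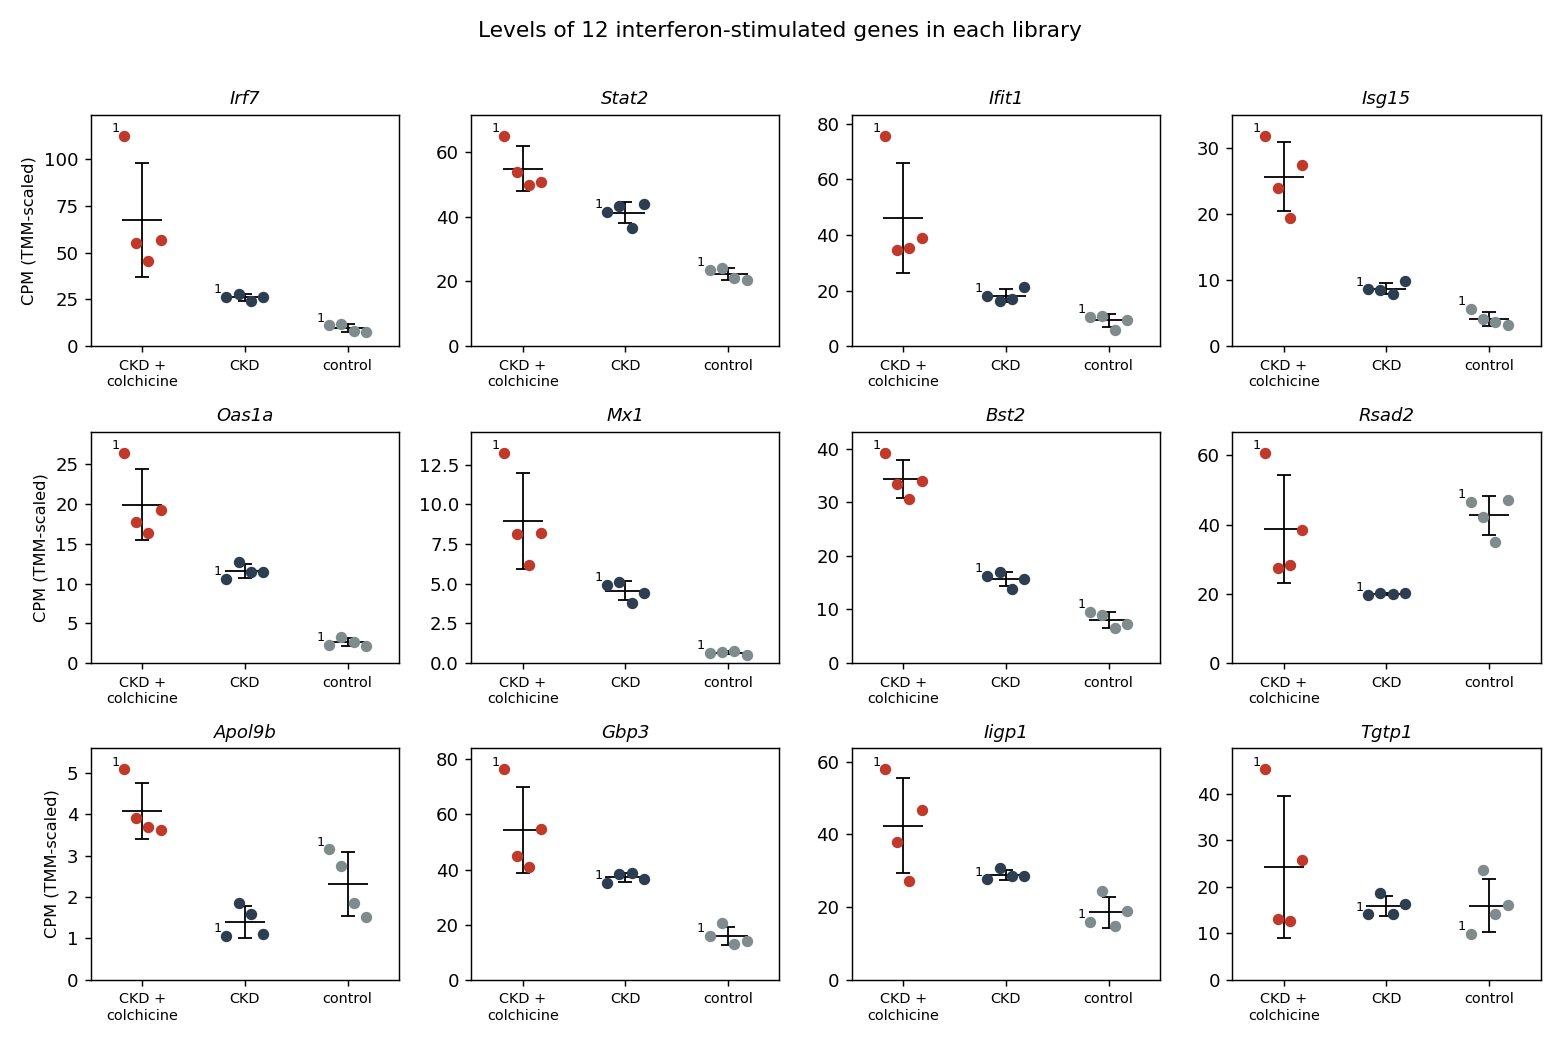
TMM-scaled CPM of 12 members in every library, with the mean and SD of each group of 4 as a bar and whiskers and replicate 1 marked. Colchicine libraries lie highest for Irf7, Isg15 and Bst2, CKD libraries lie lowest for Rsad2, and colchicine replicate 1 is the highest colchicine library in each of the 12 panels.

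Guanylate-binding proteins (Gbp) coat vacuoles that hold pathogens, and 4 of 5 rose in CKD, against 34.1% of all genes. Under library totals alone all 5 rose, as did 13197 of the 17841 genes tested. Gbp3 had 76.3, 45.1, 41.1 and 54.8 CPM in colchicine kidneys, 35.1, 38.3, 38.8 and 36.6 CPM in CKD kidneys and 15.9, 20.5, 13.1 and 14.0 CPM in control kidneys. Its groups did not overlap. It rose by 1.22 ± 0.18 log2 (SE, edgeR adjusted p = 2.98e-05) in CKD against control and by 0.55 ± 0.17 (SE, edgeR adjusted p = 0.0459) in colchicine against CKD, and the second call was lost without colchicine replicate 2 or 4 or CKD replicate 1, 2, 3 or 4 (edgeR adjusted p up to 0.110). Gbp7 had 41.4, 28.2, 25.8 and 31.9 CPM in colchicine kidneys, 27.8, 27.0, 25.3 and 27.3 CPM in CKD kidneys and 13.0, 15.0, 10.4 and 13.7 CPM in control kidneys. Its CKD libraries stood apart from control at 1.04 ± 0.14 log2 (SE, edgeR adjusted p = 8.45e-06), while colchicine replicate 3 lay within the CKD range and the value was 0.25 ± 0.13 (SE, edgeR adjusted p = 0.202). Gbp2 and Gbp5 rose in CKD by 1.19 ± 0.22 log2 and 1.17 ± 0.18, and in colchicine against CKD they had 0.62 (adjusted p = 0.0646) and 0.33 (adjusted p = 0.182) by edgeR. Without colchicine replicate 3 Gbp2 was 0.77 log2 at an edgeR adjusted p of 0.0297, and without colchicine replicate 1 it was 0.37 at 0.113. Gbp4 was -0.22 ± 0.18 log2 (SE, edgeR adjusted p = 0.295) in CKD against control. In colchicine against CKD it was 0.53 ± 0.18 log2 (SE, edgeR adjusted p = 0.0568), short of the threshold with no overlap of the groups, and it passed under 6 alternatives, among them DESeq2 (adjusted p = 0.0441) and limma-voom (0.0433).

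The immunity-related GTPases (Irg) divide into regulators, the Irgm proteins and Igtp, and effectors that attack the vacuole, among them Iigp1, Tgtp1 and Ifi47. Of these 6, Ifi47 and Iigp1 rose in CKD, a share near the 34.1% of all genes that rose. Library totals alone called all 11 GTPases higher there, and also 13197 of the 17841 genes tested. With colchicine Ifi47 rose, and the GTPases called numbered 5 rather than 2 under upper-quartile scaling, where 1764 rather than 1212 of all genes were higher. Ifi47 had 27.1, 20.0, 17.2 and 23.4 CPM in colchicine kidneys, 13.0, 15.2, 15.2 and 17.2 CPM in CKD kidneys and 5.42, 8.25, 5.48 and 6.72 CPM in control kidneys. Its log2 fold change was 1.22 ± 0.16 (SE, edgeR adjusted p = 7.43e-06) in CKD against control and 0.53 ± 0.15 (SE, edgeR adjusted p = 0.0293) in colchicine against CKD. The second was lost without colchicine replicate 2 or 4 or CKD replicate 1, 2 or 3 (edgeR adjusted p up to 0.0878). Iigp1 had 57.9, 37.9, 27.3 and 46.7 CPM in colchicine kidneys, 27.6, 30.8, 28.5 and 28.6 CPM in CKD kidneys and 16.0, 24.3, 14.9 and 19.0 CPM in control kidneys. Colchicine replicate 3 lay below every CKD library and the other 3 above all of them. Iigp1 was 0.64 ± 0.20 log2 (SE, edgeR adjusted p = 0.0124) in CKD against control and 0.55 ± 0.19 (SE, edgeR adjusted p = 0.0686) in colchicine against CKD. Without colchicine replicate 3 the second was 0.72 at an edgeR adjusted p of 0.0163, and without colchicine replicate 1 it was 0.36 at 0.145.

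The 4 other Irg members passed in neither comparison. In CKD against control Irgm1, Irgm2, Igtp and Tgtp1 had log2 fold changes of 0.28 (adjusted p = 0.284), 0.18 (adjusted p = 0.440), -0.30 (adjusted p = 0.195) and -0.02 (adjusted p = 0.972) by edgeR. With colchicine, relative to CKD, they had 0.32 log2 (adjusted p = 0.309), 0.16 (adjusted p = 0.570), 0.40 (adjusted p = 0.167) and 0.61 (adjusted p = 0.310) by edgeR. Tgtp1 spread widely with colchicine, between 12.8 and 45.3 CPM, against 14.1 to 18.7 CPM in CKD and 9.91 to 23.6 CPM in control kidneys.

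The type I members and the GTPases can be set side by side, although the difference between the 2 sets was not tested. In colchicine against CKD, 23 of the 33 type I members had a log2 fold change above 0.62, that of Gbp2 and the highest among the GTPases. Below 0.16, the lowest among the GTPases, lay 3 type I members. In CKD against control 15 type I members lay above the highest GTPase and 4 below the lowest. Among targets outside the set, the median in colchicine against CKD was 0.319 for 34 other type I targets and 0.325 for 15 other gamma targets. The mean log2 level over the 33 type I members, relative to the control mean, was 2.34, 1.72, 1.54 and 1.75 in colchicine libraries and 1.05, 1.14, 1.03 and 1.15 in CKD libraries. No colchicine library overlapped the CKD libraries. Over the 11 GTPases it was 1.55, 0.77, 0.56 and 1.10 in colchicine libraries and 0.53, 0.69, 0.56 and 0.65 in CKD libraries. Colchicine replicate 3 lay within the CKD range. Across all genes the same mean stayed between 0.09 and 0.19 in colchicine libraries and 0.09 and 0.13 in CKD libraries.

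**Figure D4:**
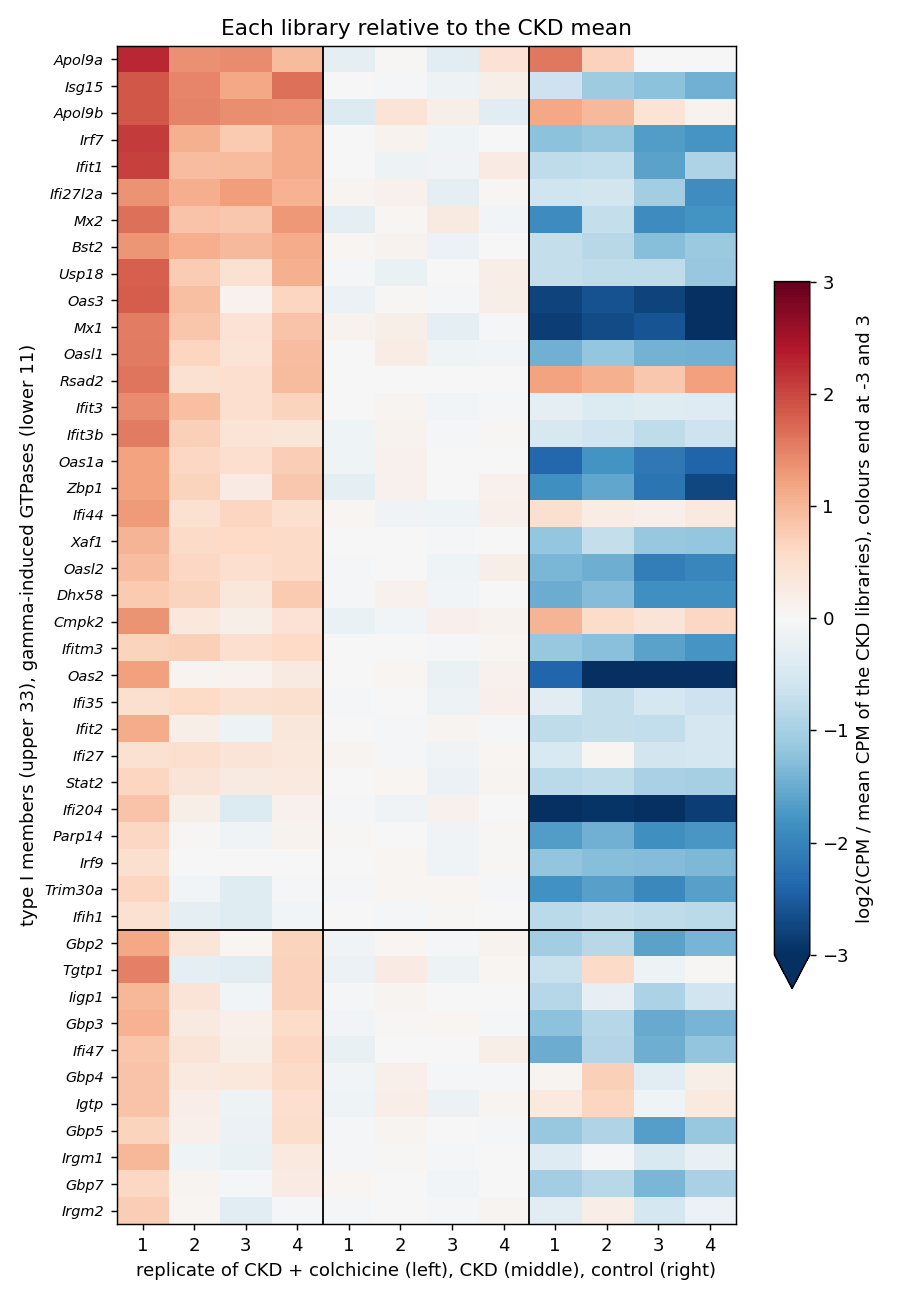
Log2 of each library's CPM over the mean CPM of the CKD libraries, for 33 type I members (upper rows) and 11 gamma-induced GTPases (lower rows) in 4 colchicine, 4 CKD and 4 control libraries; colours end at -3 and 3. Most type I rows are red across the colchicine libraries, and most are deepest in replicate 1, while several GTPase rows are red in colchicine replicates 1 and 4 and pale in 2 and 3.

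Colchicine replicate 1, whose labelled diet matches that of the CKD group, was the highest colchicine library in 41 of the 44 members. Over all genes tested it was the highest in 35.9%. The ratio of replicate 1 to the mean of the other 3 had a median of 1.60 over the members, against 0.987 over all genes. It ran between 0.975 for Ifi35 and 2.64 for Tgtp1. In 4 members, Irf9, Trim30a, Ifih1 and Irgm2, replicate 1 was the sole colchicine library above every CKD library, against 12% of all genes. Replicates 2, 3 and 4 all lay above every CKD library in 25 type I members and 2 GTPases, against 20.9% of all genes.

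Leaving out colchicine replicate 1, 25 type I members and 2 GTPases were higher than in CKD, where 15.9% of all genes were higher, and Ifih1 was lower. The median log2 fold change was then 0.58 for type I members and 0.20 for the GTPases. Isg15 was at 1.43, Apol9b at 1.42 and Bst2 at 1.05, close to their values with all libraries. Irf7 and Ifit1 were at 1.00 and 0.99. Summed macrophage markers were 856 CPM in colchicine replicate 1, within the range of 776 to 1080 CPM of its group, and summed T and NK cell markers were 22.1 CPM, the highest of a range that began at 15.2 CPM. Replicate 1 also had the highest summed markers of its group for endothelium, at 480 CPM against a lowest of 387 CPM, and for neutrophils, at 90.0 CPM against a lowest of 42.9 CPM. It had the lowest for nephron segments past the proximal tubule, at 871 CPM against a highest of 1310 CPM, for plasmacytoid dendritic cells, at 4.56 CPM against 8.46 CPM, for B and plasma cells, at 4.81 CPM against 20.4 CPM, and for erythrocytes, at 14.5 CPM against 39.9 CPM. The part of these cell types in the level of replicate 1 was not tested.

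**Figure D5:**
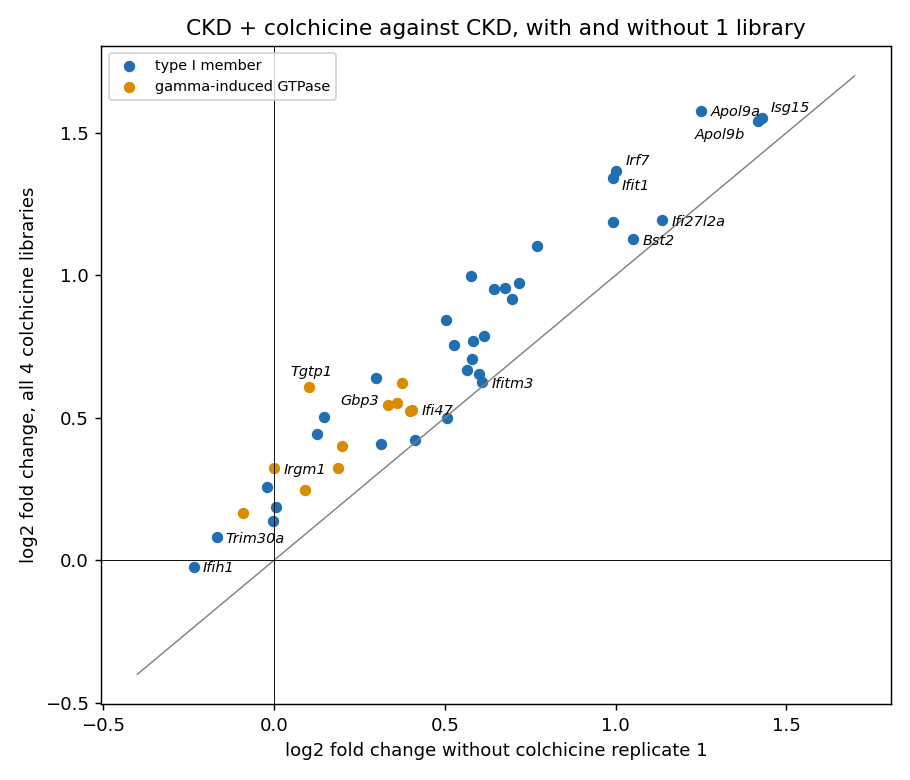
Log2 fold change of colchicine against CKD for 44 members without colchicine replicate 1 (horizontal axis) and with all 4 colchicine libraries (vertical axis); the diagonal marks equal values. All points but that of Ifi35 lie above the diagonal, Isg15, Bst2 and Ifi27l2a stay near it, and several GTPases such as Tgtp1 and Irgm1 lie near 0 on the horizontal axis.

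A slope on the labelled adenine percentage within the colchicine libraries rested on replicate 1, the library labelled 2%. With all 4 libraries it was negative in all 44 members, against 49.6% of all genes, with a median of -0.17 log2 per percent over the members and 0.00 over all genes. Without replicate 1, a fit added after the data were seen, it was negative in 13 and positive in 31 members, with a median of 0.058 log2 per percent and no member called. With all 4 libraries the slope was called by edgeR in Ifit3 and Ifit3b, where 1.27% of all genes were called, and had an unadjusted p below 0.05 in 20 members, against 19.8% of all genes. With 1 library at each percentage, the label cannot be told apart from the library. Read at 2% on that slope, 26 type I members and 1 GTPase were higher in colchicine than in CKD kidneys, against 2.2% of all genes.

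Against control, colchicine kidneys showed 30 of 33 type I members and 7 of 11 GTPases higher and none lower, where 70.5% of all genes were called, 37.1% higher and 33.4% lower. The colchicine libraries lay wholly above control in 35 members and wholly below in none, against 32.2% and 30.3% of all genes. A rise of 2-fold or more was called in 32 members, against 21.1% of all genes. The median log2 fold change was 1.93 for type I members and 1.19 for the GTPases, against 0.10 for all genes. Oas3 was at 3.82 ± 0.37 log2, Mx1 at 3.76 ± 0.26 and Oas2 at 3.47 ± 0.31, from control sums of 27, 45 and 129 counts. Isg15 was at 2.61 ± 0.18 and Irf7 at 2.79 ± 0.27 (log2 ± SE). The members that did not pass were Rsad2, Cmpk2 and Apol9a of type I and Gbp4, Irgm2, Igtp and Tgtp1 among the GTPases. Leaving out 1 library, the call of Ifi44 was lost without control replicate 3 and that of Irgm1 without colchicine replicate 4 or control replicate 1, 3 or 4 (edgeR adjusted p up to 0.0532 and 0.0671). Apol9a passed without colchicine replicate 4 or control replicate 1, Irgm2 without colchicine replicate 3 or control replicate 2 and Gbp4 without control replicate 2. Without colchicine replicate 1, Rsad2 and Cmpk2 were lower than in control at -0.45 and -0.36. This comparison shares its libraries with the other 2 and adds no independent sample.

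The interferon genes themselves were close to the limit of detection. None of 16 listed ligand genes passed the filter on low counts. Ifnb1, the first type I interferon made by most cells, summed to 7 counts in colchicine kidneys and to 0 in CKD and control kidneys. A count of 0 allows up to 3 counts, or 0.0241 CPM in CKD and 0.0437 CPM in control kidneys over each group, on the same TMM scale. Colchicine replicate 1 held none of the Ifnb1 counts. Ifng, the gamma interferon, summed to 7 counts in colchicine, 7 in CKD and 0 in control kidneys. Ifnz summed to 21 counts in colchicine, 5 in CKD and 1 in control kidneys. No ligand was tested between the groups, so no difference is read from such counts. The limits cover counting error only and not the spread between libraries.

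All 6 listed interferon receptor genes rose in CKD, where 34.1% of all genes tested were higher. Ifnar1 and Ifnar2, the type I receptor, rose by 1.03 ± 0.07 log2 (SE, edgeR adjusted p = 1.97e-09) and 0.79 ± 0.06 (SE, edgeR adjusted p = 2.29e-08). Ifngr1 and Ifngr2, the gamma receptor, rose by 1.84 ± 0.09 log2 (SE, edgeR adjusted p = 9.73e-11) and 1.29 ± 0.07 (SE, edgeR adjusted p = 2.91e-10). The type III receptor chains Ifnlr1 and Il10rb rose by 0.79 ± 0.15 log2 and 0.45 ± 0.07. With colchicine Ifngr1 was lower than in CKD, at -0.37 ± 0.09 log2 (SE, edgeR adjusted p = 0.0120), and no receptor was higher. Of all genes 8.24% were lower and 6.79% higher there. Ifnar1, Ifnar2 and Ifngr2 had -0.05 log2 (adjusted p = 0.585), -0.03 (adjusted p = 0.724) and -0.05 (adjusted p = 0.620) by edgeR.

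Of 4 other kinases and STATs, all rose in CKD and none with colchicine, against 34.1% and 6.79% of all genes. With colchicine 2 were lower, against 8.24% of all genes. Jak2, Jak1 and Tyk2, the receptor kinases, rose in CKD by 0.78 ± 0.11 log2, 0.39 ± 0.10 and 0.58 ± 0.12, and Stat3, which answers to interleukin 6, by 1.82 ± 0.10. Relative to CKD, with colchicine Jak2 was -0.42 ± 0.11 log2 (SE, edgeR adjusted p = 0.0226) and Jak1 -0.30 ± 0.10 (SE, edgeR adjusted p = 0.0485), both lower. Jak2 lost its call without colchicine replicate 2 or 3 or CKD replicate 1, 2 or 3 (edgeR adjusted p up to 0.0761). Jak1 lost it without colchicine replicate 2, 3 or 4 or CKD replicate 1, 2, 3 or 4 (edgeR adjusted p up to 0.137). Tyk2 was -0.11 log2 (adjusted p = 0.501) in colchicine against CKD by edgeR.

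Of 6 other interferon regulatory factors, 5 rose in CKD and Irf3 fell, against 34.1% and 33.4% of all genes. The fall of Irf3 was less than the shift of 1.01 between scalings. Irf8 and Irf1, which act in myeloid cells and downstream of interferon gamma, rose by 1.47 ± 0.10 log2 and 1.08 ± 0.10. Irf5, a factor of myeloid and B cells, rose by 0.58 ± 0.10 log2. Irf3, which switches on interferon genes when activated, was -0.32 ± 0.07 log2 (SE, edgeR adjusted p = 0.00120). With colchicine Irf5 was lower than in CKD, at -0.42 ± 0.10 log2 (SE, edgeR adjusted p = 0.0128), and Irf1 was 0.13 ± 0.09 (SE, edgeR adjusted p = 0.326). Irf2 was -0.26 ± 0.09 log2 (SE, edgeR adjusted p = 0.0789), and -0.37 at an edgeR adjusted p of 0.000988 without colchicine replicate 1. Of 17 genes that sense nucleic acids or relay the signal, 14 rose and 1 fell in CKD, against 34.1% and 33.4% of all genes. The one that fell was the adaptor Ticam1, at -0.39 ± 0.07 log2 (SE, edgeR adjusted p = 0.000270), also below that shift. Sting1, the adaptor for cytosolic DNA, rose by 3.09 ± 0.12 log2 (SE, edgeR adjusted p = 1.17e-11), the kinase Ikbke by 2.64 ± 0.11 and the endosomal RNA sensor Tlr8 by 5.31 ± 0.28. With colchicine 4 of the 17 were lower and none higher, against 8.24% and 6.79% of all genes. Tlr7 and Tlr8 were -0.76 ± 0.20 log2 (SE, edgeR adjusted p = 0.0253) and -0.90 ± 0.18 (SE, edgeR adjusted p = 0.00678), the adaptor Mavs -0.43 ± 0.10 (SE, edgeR adjusted p = 0.0133) and the DNA sensor Tlr9 -1.12 ± 0.34 (SE, edgeR adjusted p = 0.0393). Tlr7 lost its call without colchicine replicate 3 or CKD replicate 1 or 3, and Mavs without CKD replicate 3 (edgeR adjusted p up to 0.0841 and 0.0518). Sting1 was -0.11 log2 (adjusted p = 0.483) in colchicine against CKD by edgeR, and -0.22 at an adjusted p of 0.0466 without colchicine replicate 1.

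Of the 6 genes that restrain interferon signalling, 4 rose in CKD, against 34.1% of all genes. Socs3 led them at 5.09 ± 0.21 log2 (SE, edgeR adjusted p = 5.49e-11). Socs1, a feedback inhibitor of the receptor kinases, averaged 2.50 ± 0.412 CPM in colchicine, 1.40 ± 0.149 CPM in CKD and 0.740 ± 0.154 CPM in control kidneys (SD, n = 4 each). It rose by 0.84 ± 0.20 log2 (SE, edgeR adjusted p = 0.0166) in colchicine against CKD, a call lost without CKD replicate 1 or colchicine replicate 2 (0.79 and 0.71, adjusted p of 0.0536 and 0.0684). The phosphatase Ptpn6 was -0.33 ± 0.07 log2 (SE, edgeR adjusted p = 0.0106), and Irf2bp2 was 0.15 ± 0.07 (SE, edgeR adjusted p = 0.143).

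Further interferon targets outside the set were counted in the same way. Of 34 other type I targets tested, 33 were higher and Trim25 lower in CKD (0.50 under library totals alone), with a median log2 fold change of 1.11. Of all genes 34.1% were higher and 33.4% lower there. With colchicine 16 of the 34 were higher than in CKD and none lower, against 6.79% and 8.24% of all genes, with a median of 0.32. Isg20, an exonuclease of viral RNA, rose by 0.77 ± 0.12 log2 (SE, edgeR adjusted p = 0.00174) in colchicine against CKD. Ube2l6, the conjugating enzyme for Isg15, rose by 0.61 ± 0.10 log2 (SE, edgeR adjusted p = 0.00199), and Trim25, a ubiquitin ligase for the RNA sensor Rigi, by 0.37 ± 0.08 (SE, edgeR adjusted p = 0.00800). Trim25 had fallen by 0.51 in CKD against control (edgeR adjusted p = 2.64e-05). Slfn2, Epsti1 and Tor3a rose in CKD by 2.68 ± 0.13 log2, 2.69 ± 0.15 and 1.35 ± 0.09, and were 0.08 (adjusted p = 0.643), -0.19 (adjusted p = 0.326) and 0.24 (adjusted p = 0.0691) in colchicine against CKD by edgeR. Tor3a passed without colchicine replicate 3 (0.30, adjusted p of 0.0487).

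Of 15 other gamma targets tested, 10 rose and 1 fell in CKD, against 34.1% and 33.4% of all genes. The one that fell was Gbp10, at -2.85 ± 0.68 log2 (SE, edgeR adjusted p = 0.00195). With colchicine Gbp6 and Gbp9 were higher than in CKD and Ciita lower, against 6.79% and 8.24% of all genes, with a median over the 15 of 0.32. Ciita, the factor that switches on class II antigen presentation, was -0.89 ± 0.23 log2 (SE, edgeR adjusted p = 0.0217) in colchicine against CKD and 1.69 ± 0.25 (SE, edgeR adjusted p = 2.82e-05) in CKD against control. Gbp9 was 0.38 ± 0.09 log2 (SE, edgeR adjusted p = 0.0188) and Gbp6 0.78 ± 0.24 (SE, edgeR adjusted p = 0.0440) in colchicine against CKD. Ciita lost its call without colchicine replicate 2 or CKD replicate 1, 2 or 3 and Gbp9 without CKD replicate 1, 3 or 4 (edgeR adjusted p up to 0.0641 and 0.0596). Gbp6 lost it without colchicine replicate 1, 2 or 4 or CKD replicate 1, 2, 3 or 4 (edgeR adjusted p up to 0.122). The chemokine genes Cxcl9 and Cxcl10 had 0.57 log2 (adjusted p = 0.195) and 0.76 (adjusted p = 0.0851) by edgeR. Cxcl10 had 38.9, 16.7, 13.2 and 26.9 CPM in colchicine kidneys, 14.4, 13.4, 15.4 and 13.3 CPM in CKD kidneys and 3.56, 6.16, 4.38 and 5.57 CPM in control kidneys. Colchicine replicate 3 lay below every CKD library, and replicate 1 lay highest. Serping1, a complement inhibitor, and Acod1, the itaconate enzyme of macrophages, rose in CKD by 2.24 ± 0.09 log2 and 7.37 ± 0.45, and had 0.02 (adjusted p = 0.872) and -0.52 (adjusted p = 0.126) in colchicine against CKD by edgeR.

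Markers of several immune cell types, though not of all, were mostly higher in CKD than in control kidneys. There, 9 of 10 macrophage markers, 7 of 9 T and NK cell markers and 5 of 5 neutrophil markers tested were higher, while 6 of 7 endothelial markers were lower. Of 5 plasmacytoid dendritic cell markers 3 were higher and 1 lower in CKD. Of 4 B and plasma cell markers tested, 1 was higher and none lower in CKD. Over all genes 34.1% were higher and 33.4% lower in CKD. Summed macrophage markers were 996 to 1019 CPM in CKD and 89.8 to 109 CPM in control kidneys. Their part in the members' rise in CKD was not tested. Set against CKD, 4 of 8 proximal tubule markers and 3 of 6 markers of other nephron segments were lower with colchicine, with median log2 fold changes of -0.60 and -0.48, and none was higher. Over all genes 8.24% were lower and 6.79% higher with colchicine. With colchicine 3 of 10 macrophage markers and 2 of 9 T and NK cell markers were lower than in CKD and none was higher. Summed levels were 776 to 1080 CPM in colchicine and 996 to 1019 CPM in CKD for macrophages, and 15.2 to 22.1 CPM in colchicine and 22.1 to 32.3 CPM in CKD for T and NK cells. Of 5 plasmacytoid dendritic cell markers none was called, with summed levels of 4.56 to 8.46 CPM in colchicine and 7.21 to 8.80 CPM in CKD. Endothelial markers had 2 of 7 higher with colchicine, and summed neutrophil markers were 42.9 to 90.0 CPM in colchicine and 78.2 to 107 CPM in CKD, with 1 of 5 higher and 1 lower. The part of these lists in the members' change with colchicine was not tested. The neutrophil marker Mpo was at 0 in every control library, and no other marker was at 0 throughout a group.

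Several members have close copies, so the split of shared reads between them is uncertain. In GENCODE M21 transcripts, over 10% of the 50-base windows of 10 members also stand in another gene. The share was 81.2% for Tgtp1, mostly with Tgtp2, 57.6% for Oas1a with Oas1g, 52.3% for Apol9b with Apol9a and 51.2% for Ifit3 with Ifit3b. The copies Oas1g and Tgtp2 had log2 fold changes of 1.18 ± 0.26 and 0.50 ± 0.26 in colchicine against CKD, beside 0.79 ± 0.14 for Oas1a and 0.61 ± 0.40 for Tgtp1. Isg15, Irf7, Bst2, Rsad2 and Ifi35 share at most 3.96% of their windows with another gene.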

How the data were processed

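Kidney RNA was sequenced in 12 libraries, 4 per group, grouped by their titles; the labels' protocols name RNAiso Plus extraction and a CORALL RNA-seq V2 kit. The deposited values are the authors' gene-level expected counts in whole numbers, made with fastp, STAR and Salmon on GRCm39 per the submitters' processing notes. Versions, not given in the sources used here, are left out. All 28 values of 1000000 or more are multiples of 10, so the largest carry rounding.

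The fit used R 4.3.3 with edgeR 4.0.16. Low genes were removed with filterByExpr at a minimum count of 10, and libraries were scaled by TMM. A robust quasi-likelihood model of 3 group means was fitted to all 12 libraries. Each comparison used a two-sided F test, with Benjamini-Hochberg adjustment over 17841 genes and calls at 0.05. The standard error is the size of the log2 fold change over the square root of F. For mean levels over a set, CPM were put on a log2 scale after adding a prior count of 2. The model was also run on simulated counts, in which few genes were changed and no library was made to stand apart. No result here rests on that run.

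The members and the gene lists were chosen with earlier results of these data known, so no test here is independent of them. Every member may be named; values per library are given for the member of each role with the smallest p in either adenine comparison, and for Isg15, Irf7, Stat2, Irf9 and Iigp1. Genes of the pathway lists are named when among the 3 smallest p of their list in CKD against control or colchicine against CKD, with core pathway genes whatever their result. A few genes of the pathway lists are not reported here. Tlr9, Irf3, Ticam1, Gbp10, Ifnz, Oas1g and Tgtp2 were added after their values were seen.

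Alternatives were DESeq2 1.42.0, limma-voom (limma 3.58.1), other scalings and filters, a 2-fold threshold, the 8 libraries compared, a replicate block, a slope on labelled adenine, mitochondrial transcripts left out and each library left out; the slope without colchicine replicate 1 was added after the data were seen. A planned comparison of protein sequences was replaced by the 50-base windows, since no protein table was used here. Promoter coordinates are GRCm38.p6 and were set against no coordinate of the counts, which are on GRCm39. Of 38 windows, 27 were found to begin their own gene's transcripts in the right direction and 0 in the reverse. The printed window of Bst2 was not among these 27. Counting limits cover counting error only.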

Additional observations from a re-analysis of the deposited data

Results flagged for a closer look

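In 14 of 132 groups of 4 libraries, 1 library stood apart from the other 3 by Dixon's criterion for a gap relative to the range; chance flags about 1 in 20 groups. Of these, 7 were colchicine groups, and in 6 of the 7 the high library was replicate 1. It held 62.6 CPM of Irf9, against 44.2 to 45.2 CPM in the other 3 libraries. The same library held 75.7 CPM of Ifit1 (others 34.5 to 39.0), 34.6 CPM of Oas2 (others 15.5 to 17.8) and 26.4 CPM of Cmpk2 (others 11.7 to 14.0). It also held 70.0 CPM of Ifi44 (others 39.8 to 44.9) and 36.3 CPM of Xaf1 (others 26.6 to 27.0). These 6 genes share the library, so they are not independent. The seventh was Ifi35, with 21.5 CPM in colchicine replicate 2 and 19.8 to 19.9 CPM in the others.

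The 1 CKD group was Gbp5, at 11.1 CPM in CKD replicate 2 and 10.3 to 10.4 CPM in the others. Control replicate 2 was high for Oasl1 at 2.04 CPM (others 1.68 to 1.71), Mx2 at 1.83 CPM (others 0.816 to 0.870), Ifi27 at 37.2 CPM (others 24.6 to 26.3) and Xaf1 at 10.9 CPM (others 7.94 to 8.08). Control replicate 4 was high for Ifit2 at 27.7 CPM (others 23.1 to 23.8) and low for Usp18 at 2.32 CPM (others 3.01 to 3.09).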

How the results depend on the processing

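All members passed the low-count filter, but some rested on few counts. Over the control libraries Oas3 summed to 27, Mx1 to 45, Mx2 to 77 and Apol9a to 87 counts, and Apol9a summed to 95 in CKD. The interferon genes themselves stood at or near the limit of detection. The animals are not named, the labelled adenine percentages differ among the colchicine libraries, and each comparison against control depends on the scaling.

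In CKD against control, upper-quartile scaling gave medians of 1.16 for type I members and 0.77 for the GTPases, and library totals alone gave 2.04 and 1.65, with 11 GTPases higher and 0 members lower. These scalings move the median of all genes by 0.13 and 1.01, and library totals alone called 13197 of 17841 genes higher and 1850 lower. At 2-fold or more, 23 members were called, 17 type I members were higher, 1 member was lower and 46 pathway genes were called. Leaving out each library gave 1 to 3 members lower and a GTPase median between 0.55 and 0.80.

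In colchicine against CKD the count of GTPases higher was the least stable result, at 2 by edgeR with TMM. It was 1 with RLE scaling, with no low-count filter and at 2% on the labelled adenine slope, 5 with upper-quartile scaling and with DESeq2, 0 at 2-fold or more and 0 to 4 without 1 library; the cause was not tested. At 2-fold or more 9 members were called, all 9 of type I, and 2 pathway genes. Pathway genes called numbered 15 with the slope and 15 to 33 without 1 library, and 0 to 1 members were lower. The count of type I members higher lay between 19 and 26 when 1 library was left out, lowest without CKD replicate 3. In colchicine against control, library totals alone gave 11 GTPases higher and medians of 2.97 for type I members and 2.22 for the GTPases. Of all 17841 genes 13762 were then higher. Leaving out 1 library gave 0 to 2 members lower. An ISRE core 1 base wider was found in 5 type I members and 0 GTPases.

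No pairing of the libraries by replicate number was seen. Over 12 pairs of the same number, deviations from the group means correlated at -0.28 to 0.19, with 1 pair over 0.1. Pairs of unlike numbers ran from -0.37 to 0.42. Such correlations, from few libraries per group, cannot exclude pairing. With the replicate number as a block, 1 GTPase was higher in colchicine against CKD, and the calls of Oas3 and Gbp3 were lost. Jak1 also lost its call there, and Apol9a gained one in colchicine against control.

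Directions turned in 56 values of 29 results, of which 2 were called both ways. Both were under library totals alone, which turned Trim25 to 0.50 in CKD against control and Mavs to 0.50 in colchicine against control. The same scaling turned Cmpk2 to 0.36, Ifi44 to 0.72, Apol9a to 0.30, Apol9b to 0.29, Gbp4 to 0.79, Igtp to 0.71, Tgtp1 to 0.99, Gbp6 to 0.82 and Mavs to 0.91 in CKD against control. In colchicine against control it turned Rsad2 to 0.89, Cmpk2 to 1.02 and Trim25 to 0.89, and in colchicine against CKD Ifih1 to 0.00078. Upper-quartile scaling turned Tgtp1 to 0.12 and Mavs to 0.039 in CKD against control. It turned Ifih1 to 0.029, Ifnar1 to 0.0084 and Ifngr2 to 0.0099 in colchicine against CKD, and Rsad2 to 0.042, Cmpk2 to 0.16 and Trim25 to 0.051 in colchicine against control. RLE scaling and DESeq2 turned Serping1 to -0.0021 and -0.0064 in colchicine against CKD. Tgtp1 in CKD against control turned to 0.037 with no filter, 0.0016 with DESeq2 and 0.022 with limma-voom, and Cmpk2 in colchicine against control to 0.031 with no filter. Reading colchicine at 2% adenine turned Ifih1 to 0.23, Stat3 to 0.062, Sting1 to 0.081 and Tyk2 to 0.014 against CKD, and Rsad2 to 0.15 and Cmpk2 to 0.38 against control.

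When 1 library was left out, log2 fold changes in colchicine against CKD ranged over -0.031 to 0.077 for Serping1, -0.0020 to 0.19 for Irf9, -0.17 to 0.21 for Trim30a, -0.020 to 0.42 for Ifi204, -0.090 to 0.30 for Irgm2, -0.061 to 0.14 for Slfn2 and -0.23 to 0.077 for Ifih1. In CKD against control Tgtp1 ranged over -0.19 to 0.24. In colchicine against control the ranges were -0.36 to 0.12 for Cmpk2, -0.10 to 0.25 for Igtp and -0.0074 to 0.16 for Jak1. The calls of Ifit3, Ifit3b and Cmpk2 in CKD against control were lost with no low-count filter (adjusted p of 0.0631, 0.0695 and 0.108) and that of Apol9b with upper-quartile scaling (0.0520), while Irgm1 and Ifi44 passed with the 8 libraries compared alone (0.00272 and 0.00780). The call of Oas3 in colchicine against CKD was lost with those 8 libraries, the block or limma-voom (0.0573 to 0.0809), as was that of Gbp3 with RLE scaling, no filter, the 8 libraries or the block (0.0576 to 0.138), that of Ifit3b with no filter or the 8 libraries (0.0807 and 0.0506) and those of Ifi27 and Ifi47 at 2% on the slope (0.0621 and 0.0572). Cmpk2, Gbp2 and Iigp1 passed with upper-quartile scaling (0.0398, 0.0360 and 0.0360) and DESeq2 (0.0403, 0.0288 and 0.0451), and Cmpk2 and Ifit2 at 2% on the slope (0.0173 and 0.0380). In colchicine against control Irgm1 was lost with no filter (0.0671), and Apol9a, at 0.0501 by edgeR, passed under 8 alternatives beside those that leave out a library. The median slope of the members on the labelled adenine turned to 0.058 without colchicine replicate 1. Of the values of single members under all alternatives, 2409 kept their direction and their side of the threshold, 107 lost their call, 44 gained one and 36 turned. The cause of these turns was not tested.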
